A study of Mus musculus with 6 samples.

Results

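The proteasome genes are described here across 6 two-colour arrays that compared mature with elongating fiber cells of the mouse lens. Members were the genes whose probe symbol began with Psma, Psmb, Psmc, Psmd, Psme or Psmg and a digit, or was Pomp or Adrm1. This rule found 47 of 16504 named genes, on 49 probes, and 45 of the 47 are proteasome subunits, activators or assembly factors. The other 2 were matched by the start of the name and are not counted as proteasome genes here. They are Psmc3ip, a factor of meiotic recombination, and Psme3ip1, which is named as an interaction partner of the activator Psme3. Psmb6, Adrm1, Psmg4 and Psme2 were not analysed here.

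On each array the 2 fiber populations were set directly against each other, one per channel. Both were collected by laser capture from 5 µm sections of lens, and both came from the same GFP transgenic strain, TgN(GFPU)5Nagy. Mature fibers were in channel 1 on lens249, lens487 and lens493, and elongating fibers were in channel 1 on lens250, lens488 and lens455. For lens249 and lens250 the labels give postnatal day 5, about 40 slices and a minimum of 200 cells pooled over the lenses of littermates. The labels do not say which arrays came from separate animals or extracts, so p-values measure the spread between these arrays, which may be technical.

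Values are the deposited log ratios, with the sign of lens250, lens488 and lens455 turned. Neither the base of the logarithm nor the numerator is stated in the sources used here. With channel 1 as numerator, a negative value means less transcript in mature fibers, and with channel 2 it means more. To fix the 2 sides by known genes, the negative side is that of Cdh2, the cadherin of fiber cell membranes (-1.78 ± 0.54), and the positive side that of Dnase2b, the lysosomal nuclease that degrades fiber cell DNA (1.81 ± 0.30). Errors throughout are SDs over 6 arrays. A ratio gives no level, so which subunit is the more abundant cannot be read from these data, and fewer cells of a type and less RNA per cell cannot be told apart.

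The proteasome degrades proteins that carry ubiquitin chains. Its barrel, the 20S core, has outer rings of alpha subunits, which form the gate, and inner rings of beta subunits, some of which cut proteins. The 19S particle on its ends has a base, whose ATPases unfold the substrate and open the gate, and a lid, which removes the ubiquitin chain. Other activators can bind the core in its place, and dedicated assembly factors build core and base. In the lens, fiber cells lose their nuclei and other organelles as they mature, and the ubiquitin proteasome system is active in these cells.

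The genes were read against the promoter sequences of RefSeq (GRCm38.p6), in which 37 of the 45 proteasome genes had an entry. The 250 bases before the transcription start are shown for Psma4, the member that passed the test, and for Psma3, Psmd6 and Psme1, which were below 0 on all 6 arrays as well. Psmg2, also below 0 on all 6 arrays, is not shown. In Psma4, at chr9:54950609-54950858 on the plus strand, the capitals mark the core motif of nuclear respiratory factor 1, GCGCANGCG, which begins 61 bases before the start. In Psma3, at chr12:70974373-70974622 on the plus strand, the capitals mark a CCAAT box, which begins 139 bases before the start, and the same GCGCANGCG motif, which begins 78 bases before it. Psmd6, at chr14:14120946-14121195 on the minus strand, and Psme1, at chr14:55578244-55578493 on the plus strand, hold neither of these motifs nor the TGACNNNGC motif, so they have no capitals.
Psma4: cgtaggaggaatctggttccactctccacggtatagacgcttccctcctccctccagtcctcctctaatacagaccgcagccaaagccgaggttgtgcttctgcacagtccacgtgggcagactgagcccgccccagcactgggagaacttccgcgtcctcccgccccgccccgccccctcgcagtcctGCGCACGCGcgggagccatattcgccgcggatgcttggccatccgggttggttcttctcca
Psma3: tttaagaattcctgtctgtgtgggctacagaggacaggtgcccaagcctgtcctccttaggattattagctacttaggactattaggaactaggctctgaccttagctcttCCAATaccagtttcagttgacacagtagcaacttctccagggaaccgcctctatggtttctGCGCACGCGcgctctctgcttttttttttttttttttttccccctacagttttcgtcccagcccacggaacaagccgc
Psmd6: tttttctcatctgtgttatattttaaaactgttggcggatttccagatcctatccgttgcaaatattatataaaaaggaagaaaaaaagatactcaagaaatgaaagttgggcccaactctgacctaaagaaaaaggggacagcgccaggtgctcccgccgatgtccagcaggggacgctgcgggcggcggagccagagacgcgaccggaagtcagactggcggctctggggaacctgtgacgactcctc
Psme1: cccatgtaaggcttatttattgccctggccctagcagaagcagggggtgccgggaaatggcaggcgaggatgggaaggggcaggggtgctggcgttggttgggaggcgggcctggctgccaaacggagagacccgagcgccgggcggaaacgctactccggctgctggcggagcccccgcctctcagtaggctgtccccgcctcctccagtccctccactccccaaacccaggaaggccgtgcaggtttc

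Motifs were searched on both strands in the 250 bases before the start. The motif GCGCANGCG lay before 6 of the 37 proteasome genes (16.2%), namely Psma2, Psma3, Psma4, Psmc4, Psmc5 and Psmd14. It lay before 5.86% of all 27025 genes with a promoter entry and before 9.39% of the 13223 of them on the array. This motif was chosen after the sequences had been seen. The CCAAT box lay before 14 of the 37 (37.8%), against 37.5% of all genes and 39.6% of those on the array. The antioxidant response element core TGACNNNGC, the kind of motif bound by Nfe2l1 and Nfe2l2, lay before Psmb5, Psmc6, Psmd12 and Psmd9. That is 10.8% of the 37, against 11.5% of all genes and 13.2% of those on the array. These matches describe letters in a window and not binding.

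Of the 45 proteasome genes, 1 passed the test, Psma4, on the negative side. The test was limma over all 19624 features, two-sided, with a term for the dye and Benjamini-Hochberg adjustment at a threshold of 0.05. It called 1.73% of all features, 1.36% on the negative side and 0.372% on the positive side, against 2.22% of the proteasome genes. Before adjustment, 10 of 45 had a p under 0.05 on the negative side (22.2%), against 8.94% of all features, and 0 did so on the positive side, against 7.28%. The 10 were Psma2, Psma3, Psma4, Psma6, Psmb3, Psmc6, Psmd6, Psme1, Psme3 and Psmg2.

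The mean of the 6 arrays was below 0 for 32 of 45 genes (71.1%), against 49.0% of all features and 50.0% of named genes. The median over the 45 was -0.09, with a range from -0.62 to 0.19, against 0.0030 over all features. Below 0 on all 6 arrays were 5 of 45 (11.1%), against 5.65% of all features, and above 0 on all 6 were 0, against 3.52%. These 5 were Psma3, Psma4, Psmd6, Psme1 and Psmg2.

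The average over the 45 genes was -0.03 on lens249, -0.06 on lens250, -0.15 on lens487, -0.05 on lens488, -0.21 on lens493 and -0.12 on lens455. It was below 0 on every array and lowest on lens493. The average over all features was below 0 on 5 arrays and also lowest on lens493, at -0.06, and was 0.06 on lens250. The number of genes below 0 was 21 of 45 on lens249, 28 on lens250, 36 on lens487, 27 on lens488, 30 on lens493 and 30 on lens455. On lens249 fewer genes lay below 0 than above it, and on the other arrays more did. Of all features, between 49.7% and 50.1% lay below 0 on each array.

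**Figure D1:**
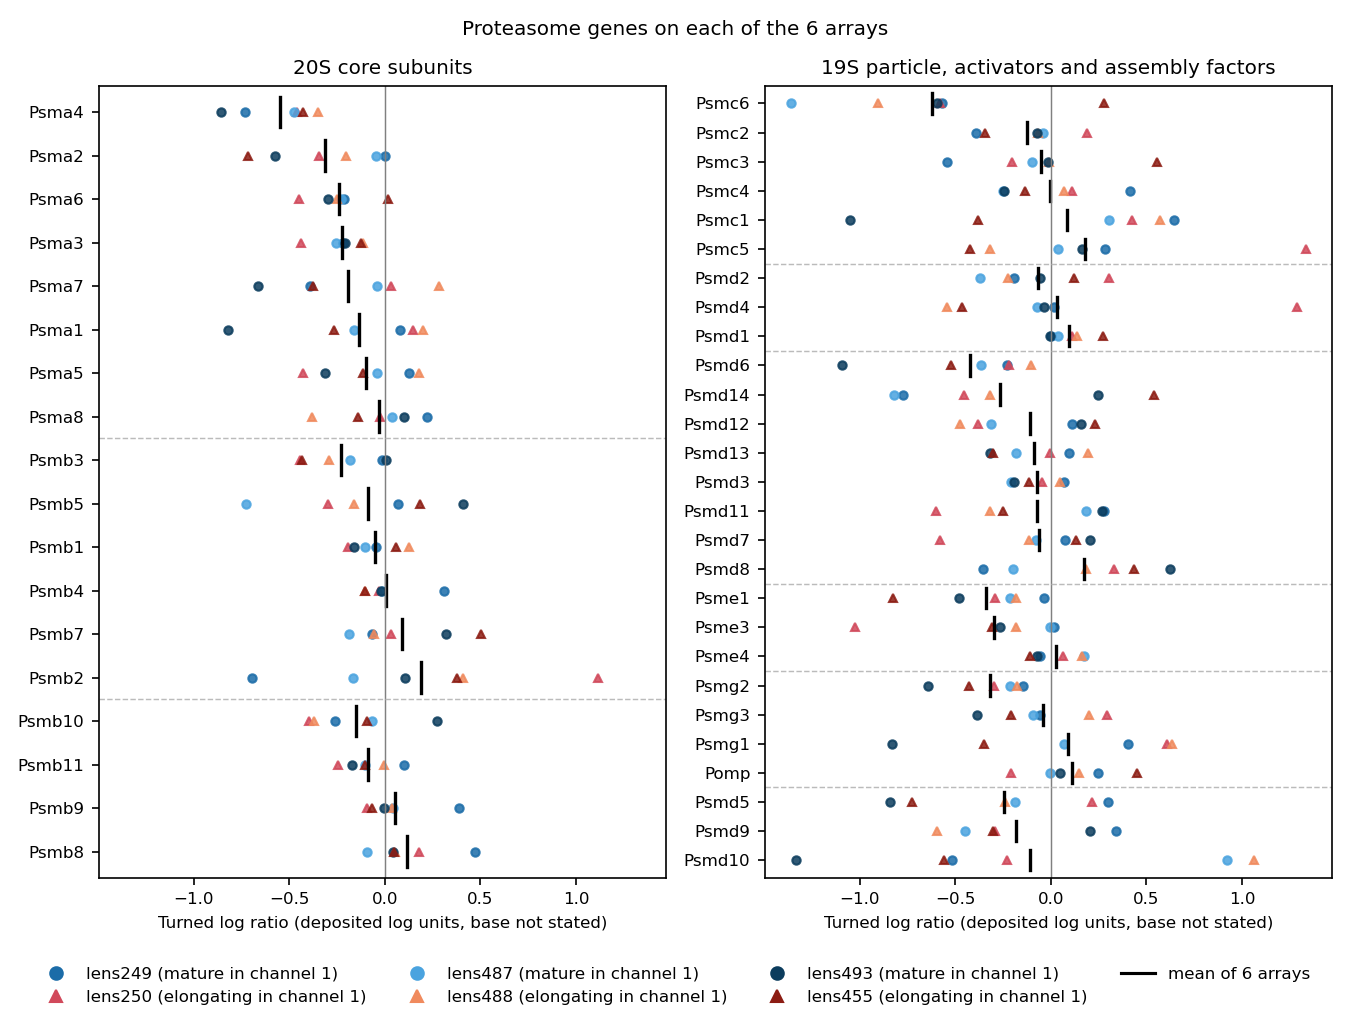
Turned log ratio (horizontal axis, deposited log units of unstated base) of proteasome genes, one row per gene, with one point per array and a bar at the mean of 6 arrays. Circles have mature fibers in channel 1 and triangles elongating fibers in channel 1. The 6 points of Psma4 lie between -0.86 and -0.35, while those of Psmc5 and Psmb2 lie on both sides of 0.

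In the alpha ring, all 8 genes measured had a mean below 0, with a median of -0.21, and 1 of the 8 passed the test. Psma4, one of the alpha subunits whose tails form the gate of the core, was -0.73 on lens249, -0.46 on lens250, -0.48 on lens487, -0.35 on lens488, -0.86 on lens493 and -0.43 on lens455. Every array was below 0, and lens493 and lens249 were the lowest. Its mean was -0.55 ± 0.20, with a standard error of 0.07 in the limma fit, a 95% interval from -0.71 to -0.39 and an adjusted p of 0.021. Such a difference would be 1.46-fold if the logarithm has base 2 and 3.55-fold if it has base 10. An exact two-sided sign-flip permutation over the 6 arrays gave p = 0.0312, which is the smallest it can give. The call rested on all 6 arrays together. Leaving out any one of them gave a limma adjusted p between 0.059 and 0.088, with estimates from -0.60 to -0.51. Calls over all features also fell on leaving out one array, from 339 to between 16 and 117. Values without an array are estimates of the same fit, with its dye term, unless they are called averages.

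Psma3, another alpha subunit, was -0.22 on lens249, -0.44 on lens250, -0.26 on lens487, -0.12 on lens488, -0.21 on lens493 and -0.12 on lens455. All 6 were below 0, lens250 the lowest, but the mean of -0.23 ± 0.12 did not pass the test (limma adjusted p = 0.17). Psma2 (-0.31 ± 0.29) was lowest on lens455 at -0.72 and at 0.0010 on lens249. Psma6 (-0.24 ± 0.15) was below 0 on every array but lens455, where it was 0.016. Psma7 (-0.19 ± 0.34), Psma1 (-0.14 ± 0.38) and Psma5 (-0.10 ± 0.24) had arrays on both sides of 0. Psma8, the alpha subunit of the testis proteasome, had a mean of -0.03 ± 0.21.

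The constitutive beta ring showed no common side. Of 6 genes measured, 3 had a mean below 0 and 3 above, with a median of -0.02, and 0 passed the test. Psmb3, a beta subunit without a cutting site, was -0.014 on lens249, -0.45 on lens250, -0.18 on lens487, -0.29 on lens488, 0.0040 on lens493 and -0.43 on lens455. It was lower on the 3 arrays that had elongating fibers in channel 1 than on the others. Its mean was -0.23 ± 0.20 (limma adjusted p = 0.13), and its dye term had an unadjusted p of 0.031 in the same limma fit.

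Psmb2, a further beta subunit without a cutting site, was the highest of the constitutive ring. Its values were -0.69 on lens249, 1.12 on lens250, -0.17 on lens487, 0.41 on lens488, 0.10 on lens493 and 0.38 on lens455. It was above 0 and highest where elongating fibers were in channel 1, at 0.38 or more, and the mean of 0.19 ± 0.61 did not pass the test (limma adjusted p = 0.57). The 2 subunits measured that cut proteins were Psmb5, the chymotrypsin-like site (-0.09 ± 0.40), and Psmb7, the trypsin-like site (0.09 ± 0.27). Psmb1 had a mean of -0.05 ± 0.13 and Psmb4 one of 0.0055 ± 0.15.

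Of the inducible beta subunits, which replace the cutting subunits in the immunoproteasome, and their thymus relative, 0 of 4 passed the test. Psmb8 was 0.47 on lens249, 0.18 on lens250, -0.09 on lens487, 0.05 on lens488, 0.04 on lens493 and 0.05 on lens455. Only lens249 and lens250 were above 0.1, and the mean was 0.12 ± 0.19 (limma adjusted p = 0.57). Psmb10 was -0.26 on lens249, -0.40 on lens250, -0.07 on lens487, -0.37 on lens488, 0.28 on lens493 and -0.09 on lens455. It lay below 0 on every array but lens493, with a mean of -0.15 ± 0.25 (limma adjusted p = 0.46). Psmb9, the third immunoproteasome subunit, had a mean of 0.05 ± 0.17, and Psmb11, the beta subunit of thymus epithelium, one of -0.09 ± 0.12. Of 12 macrophage and leukocyte markers measured, 1 passed, Laptm5 on the positive side, and their average ranged from -0.03 to 0.18 over the arrays; their part in these values was not tested.

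In the base, the ATPase gene Psmc6 had the lowest mean of all 45 genes, at -0.62 ± 0.54. It was -0.57 on lens249, -0.58 on lens250, -1.36 on lens487, -0.91 on lens488, -0.59 on lens493 and 0.28 on lens455. The value on lens455 was above 0 and those on lens487 and lens488 were the lowest, and the gene did not pass the test (95% interval -1.04 to -0.21, limma adjusted p = 0.15). Without lens455 it was -0.79.

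Psmc5, the ATPase with the highest mean, was 0.28 on lens249, 1.34 on lens250, 0.04 on lens487, -0.32 on lens488, 0.16 on lens493 and -0.42 on lens455. The single high value on lens250 set its side, since the mean was 0.18 ± 0.63 over 6 arrays and the fit estimate without lens250 was -0.11. Psmc2 had a mean of -0.12 ± 0.21 over its 2 probes, which gave -0.20 ± 0.36 and -0.05 ± 0.14. Psmc3 (-0.05 ± 0.36), Psmc4 (-0.0067 ± 0.26) and Psmc1 (0.08 ± 0.67) had arrays on both sides of 0. Of the 6 ATPases, 0 passed the test and 4 had a mean below 0, with a median of -0.03.

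Among the base subunits that are not ATPases, 3 were measured and 0 passed the test. Psmd1, the scaffold that carries the ubiquitin receptor Adrm1, was 0.0020 on lens249, 0.11 on lens250, 0.04 on lens487, 0.14 on lens488, -0.0030 on lens493 and 0.27 on lens455. These values lay within a narrow range, with a mean of 0.09 ± 0.11. Psmd2, the scaffold on which the deubiquitinase Usp14 docks, was -0.19 on lens249, 0.31 on lens250, -0.37 on lens487, -0.23 on lens488, -0.06 on lens493 and 0.12 on lens455. Its arrays fell on both sides of 0, with a mean of -0.07 ± 0.25. Psmd4, a ubiquitin receptor, had a mean of 0.03 ± 0.66, with 1.29 on lens250, and the fit estimate without lens250 was -0.27.

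The lid had 7 of 8 genes with a mean below 0 and a median of -0.08, and 0 passed the test. Psmd6, a structural lid subunit, was -0.23 on lens249, -0.22 on lens250, -0.37 on lens487, -0.10 on lens488, -1.09 on lens493 and -0.52 on lens455. All 6 arrays were below 0, with lens493 far below the rest. Its mean was -0.42 ± 0.36 (limma adjusted p = 0.16), and the fit estimate without lens493 was -0.29.

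Psmd8 was the one lid gene with a mean above 0. It was -0.35 on lens249, 0.33 on lens250, -0.20 on lens487, 0.18 on lens488, 0.62 on lens493 and 0.44 on lens455, which gave 0.17 ± 0.38. Arrays lay on both sides of 0 and the gene did not pass the test (limma adjusted p = 0.59). Psmd14, the deubiquitinase of the lid, had a mean of -0.26 ± 0.55, with lens493 and lens455 above 0 and the other 4 arrays below. Its partner Psmd7 had a mean of -0.06 ± 0.28. Psmd12 (-0.11 ± 0.31), Psmd13 (-0.09 ± 0.21), Psmd3 (-0.07 ± 0.12) and Psmd11 (-0.07 ± 0.37) lay between them. Psmd11 split by orientation, above 0 on the 3 arrays with mature fibers in channel 1 and below 0 on the other 3, with an unadjusted p of 0.0024 for its dye term in limma (adjusted p = 0.27).

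The activators measured were Psme1, Psme3 and Psme4, and 0 of the 3 passed the test. Psme1, a subunit of the interferon-inducible PA28 ring, was -0.03 on lens249, -0.29 on lens250, -0.21 on lens487, -0.18 on lens488, -0.48 on lens493 and -0.83 on lens455. All were below 0, lens455 the lowest and lens249 close to 0, with a mean of -0.34 ± 0.28 (limma adjusted p = 0.18). Psme3, which forms a nuclear ring of the same family, had a mean of -0.30 ± 0.38 (limma adjusted p = 0.28), with -1.02 on lens250. Without lens250 the fit estimate of Psme3 was -0.17.

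Psme4, the large single-chain activator PA200, had the mean nearest to 0 of the activators. It was -0.06 on lens249, 0.06 on lens250, 0.17 on lens487, 0.16 on lens488, -0.07 on lens493 and -0.11 on lens455, with a mean of 0.025 ± 0.12. Arrays lay on both sides of 0. Its 2 probes gave 0.06 ± 0.28 and -0.0088 ± 0.34.

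Of the 7 assembly factors, 0 passed the test. Psmg2, which pairs with Psmg1 to seed the alpha ring, was -0.15 on lens249, -0.30 on lens250, -0.21 on lens487, -0.17 on lens488, -0.64 on lens493 and -0.43 on lens455. All 6 arrays were below 0, with a mean of -0.32 ± 0.19 (limma adjusted p = 0.13). Psmg1 itself had a mean of 0.09 ± 0.58, with lens493 and lens455 below 0 and the other 4 arrays above. Psmg3, a further chaperone of the alpha ring, had a mean of -0.04 ± 0.25.

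Pomp, which escorts the beta subunits into the forming core, was 0.25 on lens249, -0.21 on lens250, -0.0050 on lens487, 0.14 on lens488, 0.05 on lens493 and 0.45 on lens455. Arrays lay on both sides of 0, with a mean of 0.11 ± 0.23 (limma adjusted p = 0.63). The chaperones of the base were Psmd5, Psmd9 and Psmd10. Psmd5 was 0.30 on lens249, 0.22 on lens250, -0.19 on lens487, -0.24 on lens488, -0.84 on lens493 and -0.73 on lens455. It was similar within lens249 and lens250, within lens487 and lens488 and within lens493 and lens455, with a mean of -0.25 ± 0.47 (limma adjusted p = 0.55). Psmd9 had a mean of -0.18 ± 0.37 and Psmd10, also known as gankyrin, one of -0.11 ± 0.93, the largest spread of the 45 genes. Psmd10 was above 0 on lens487 (0.92) and lens488 (1.06) and below 0 on the other 4 arrays.

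Core, base, lid and activators were compared by their average on each array, without a test, because the genes of a group are not replicates. The average over the 14 genes of the 20S core, alpha and constitutive beta subunits together, was -0.13 ± 0.06 and below 0 on all 6 arrays. It was -0.05 ± 0.20 for the 9 genes of the base, -0.12 ± 0.11 for the 8 of the lid and -0.20 ± 0.19 for the 3 activators. The differences between these groups were smaller than their own spread over the arrays. That spread is an SD over single arrays and not the error of the mean, so it does not decide whether the groups differ. Core minus base was -0.08 ± 0.20, core minus lid -0.02 ± 0.12 and base minus lid 0.06 ± 0.27, each below 0 on 3 arrays and above 0 on 3. The values of the base were set by lens250, without which the average was -0.13 for the base and -0.13 for the core. Over the other 5 arrays core minus base averaged -0.0035, base minus lid turned to -0.04 and base minus activators was 0.03. Core minus lid averaged 0.02 without lens493 and 0.0038 without lens455. Core minus activators was 0.07 ± 0.19, lid minus activators 0.09 ± 0.24 and base minus activators 0.15 ± 0.35. Without lens455, core minus activators averaged 0.02 and lid minus activators 0.02.

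Within the core, the alpha ring averaged -0.22 ± 0.13 and the constitutive beta ring -0.01 ± 0.13. Alpha minus beta was -0.07 on lens249, -0.28 on lens250, 0.08 on lens487, -0.07 on lens488, -0.56 on lens493 and -0.37 on lens455. The alpha ring was the lower on every array but lens487, with a mean difference of -0.21 ± 0.24. This SD is the spread of single arrays and not the error of the mean, and the difference was not tested. Constitutive minus inducible and thymus beta subunits was 0.0049 ± 0.18. The chaperones of the base averaged -0.18 ± 0.33 and those of the core -0.04 ± 0.24.

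**Figure D2:**
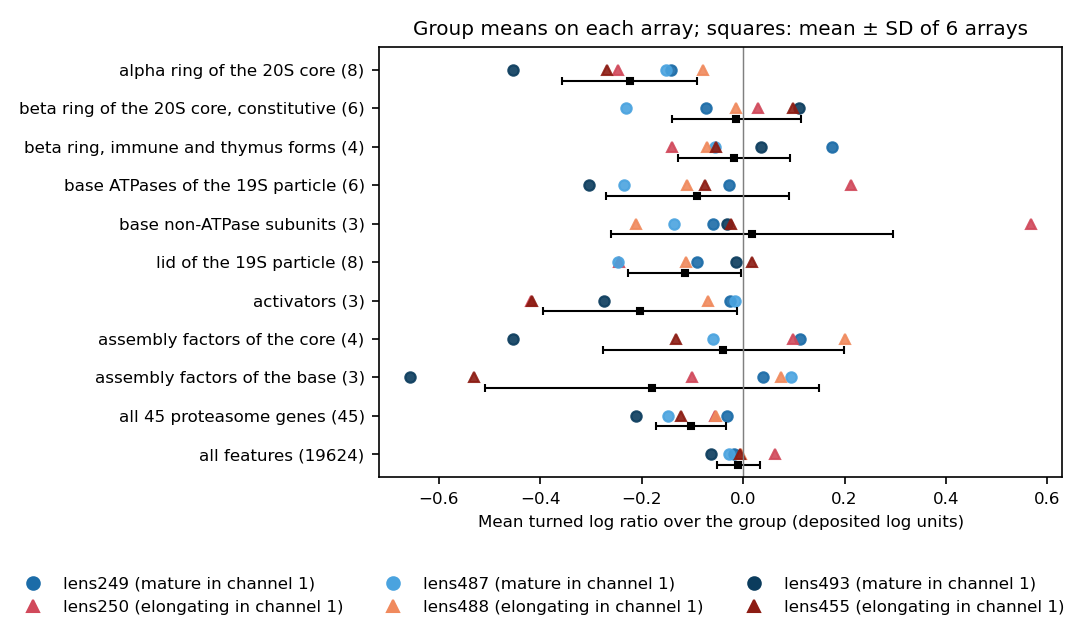
Average turned log ratio (deposited log units of unstated base) of each group of proteasome genes on each of the 6 arrays, with the number of genes in brackets. Points are arrays, circles with mature and triangles with elongating fibers in channel 1, and the mean of 6 arrays is marked separately. The alpha ring (mean -0.22) and the activators (mean -0.20) are below 0 on all 6 arrays. The points spread from -0.30 to 0.21 for the base ATPases and from -0.21 to 0.57 for the other base subunits.

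**Figure D3:**
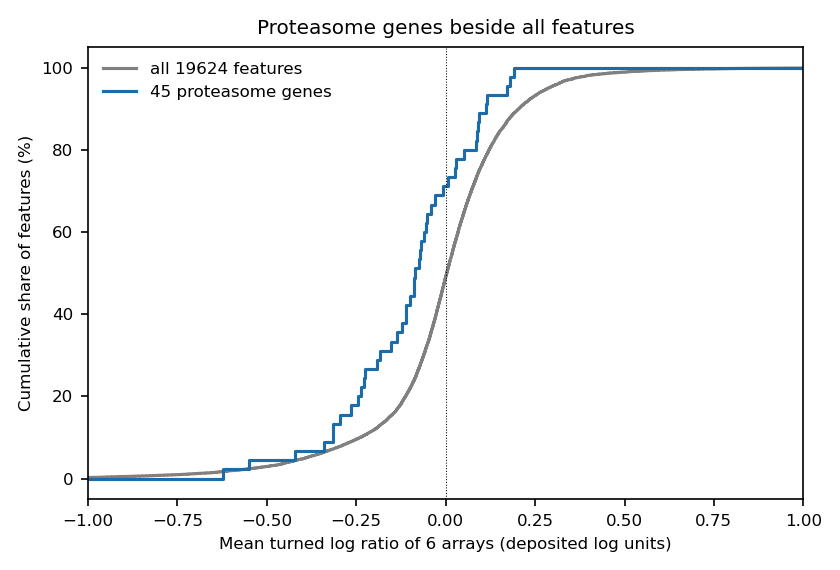
Cumulative share (vertical axis, percent) of the 45 proteasome genes and of all 19624 features at or below a given mean turned log ratio (horizontal axis, deposited log units). The proteasome curve crosses 0 at 71.1% and that of all features at 49.0%.

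Factors that bind the proteasome but fall outside the rule lay on both sides of 0. Of 18 such partners measured, 1 passed the test on the positive side, Usp14, and 17 did not pass. Usp14, the deubiquitinase of the base, was 0.12 on lens249, 0.66 on lens250, 0.70 on lens487, 0.61 on lens488, 0.36 on lens493 and 0.62 on lens455. All arrays were above 0, lens249 the lowest, with a mean of 0.51 ± 0.23 (limma adjusted p = 0.037). Leaving out one array in turn gave estimates from 0.44 to 0.58, and the call was lost in each case. In these fits the calls over all features also fell, from 339 to between 16 and 117. Psma4 and Usp14 thus lay on opposite sides, whichever channel is the numerator.

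Uchl5, the other cysteine deubiquitinase of the 19S particle, was above 0 on all 6 arrays with a mean of 0.37 ± 0.22 (limma adjusted p = 0.094). Psmf1, the PI31 protein, which binds the core, was below 0 on all 6 arrays with a mean of -0.37 ± 0.18 (limma adjusted p = 0.073). Ube3c, a ubiquitin ligase that works at the proteasome, had a mean of -0.43 ± 0.23 (limma adjusted p = 0.075). None of these passed the test.

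Of 8 genes for the control of proteasome genes, 0 passed the test, and their median was -0.05. The mean was below 0 for 7 of the 8 (87.5%), against 49.0% of all features. Nfe2l2, a transcription factor that can raise proteasome genes under oxidative stress, was below 0 on every array but lens488, with a mean of -0.30 ± 0.37 (limma adjusted p = 0.27). Ngly1, the glycanase that processes Nfe2l1, had a mean of -0.14 ± 0.50. Mafk, a small Maf partner of both factors, had a mean of -0.17 ± 0.31.

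**Figure D4:**
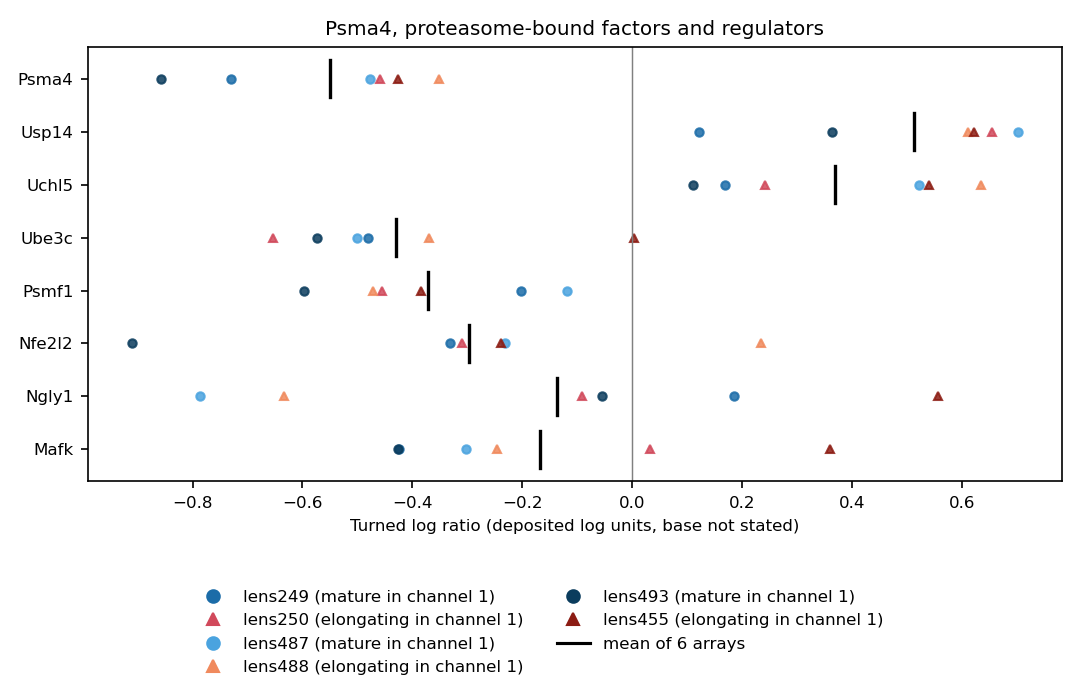
Turned log ratio (horizontal axis, deposited log units of unstated base) of Psma4, of 4 proteasome-bound factors and of 3 regulators on each array, with a bar at the mean of 6 arrays; circles have mature fibers in channel 1 and triangles elongating fibers. All points of Psma4 and Psmf1 are below 0, all points of Usp14 and Uchl5 are above 0, and those of Ngly1 spread to both sides.

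The medians of 3 other complexes were also below 0, and each was lower than the -0.09 of the 45 proteasome genes. In eIF3, the translation initiation factor, which like the lid is built of PCI and MPN domain subunits, 9 of 12 genes had a mean below 0, with a median of -0.13, and 1 passed the test, Eif3e (-0.48 ± 0.21, limma adjusted p = 0.0495). This call lay at the threshold and was lost with arrays scaled to one spread (limma adjusted p = 0.0568), with each probe a feature (0.0528), with robust eBayes (0.0515) and on leaving out any one array (0.0796 to 0.17). In the COP9 signalosome, the complex closest to the lid, 5 of 9 genes had a mean below 0, with a median of -0.16, and 0 passed. Cops2 (-0.45 ± 0.22, limma adjusted p = 0.0687) passed without the dye term (0.0469) and with scaling (0.048). In the CCT chaperonin, which folds actin and tubulin, 5 of 8 genes had a mean below 0, with a median of -0.26. The test called 3 of the 8, against 1.73% of all features. Cct6a (-0.52 ± 0.13, limma adjusted p = 0.023) and Cct2 (-0.46 ± 0.21, limma adjusted p = 0.035) were on the negative side and Cct8 (0.57 ± 0.24, limma adjusted p = 0.036) on the positive side. All 3 calls were lost on leaving out any one array, with limma adjusted p from 0.0545 to 0.139, and that of Cct8 also with scaling (0.0576).

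Over the 45 genes, deviations from the gene means correlated at r = 0.56 between lens487 and lens488 and at r = 0.53 between lens493 and lens455, against 0.31 and 0.11 over all features. Between lens249 and lens250 the correlation was -0.19 in both sets. Deviations from a shared mean are pushed below 0 by construction, and genes are not independent replicates, so these values carry no p. The labels do not say whether these arrays share RNA.

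For the dye term, 12.6% of all features had an unadjusted p under 0.05 and 0 passed after adjustment (smallest limma adjusted p 0.146). Among the proteasome genes Psmb2, Psmb3 and Psmd11 had an unadjusted p under 0.05. Of 12 lens epithelium markers, 1 passed, Col4a1 at -0.95 ± 0.38, and the list had a median of -0.02, with 7 genes below 0 and 5 above. Its average was -0.24 ± 0.16. The lowest means were those of the matrix genes Lamb1 (-0.99 ± 0.97), Col4a1 and Col4a2 (-0.58 ± 0.51), followed by Ccnd1 (-0.34 ± 0.24) and Ccnd2 (-0.26 ± 0.27). Foxe3, the transcription factor of lens epithelium, was 0.11 ± 0.11. The 11 blood and vessel markers averaged 0.03 ± 0.13 and the 11 retina and pigment cell markers 0.09 ± 0.06, with 0 passing in either. The part of these cell types in the proteasome values was not tested. The 2 genes matched by name alone did not pass the test, with means of 0.10 ± 0.27 for Psmc3ip and -0.22 ± 0.25 for Psme3ip1.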

How the data were processed

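The deposited table holds 1 score per probe and array, a log ratio of the 2 channels made by the authors, for 22575 probes. The sources used here state no log base, numerator, scanner, background correction or normalization. The design allowed for log2; with the base unknown, deposited log units were kept. No intensities were used, so the number of arrays limits the precision. Left out were 1032 unlisted probes in 10 sets of 40 or more identical rows, taken as control spots, and 637 other repeats of a row. Each array was centred on its median and turned by the channel of mature fibers. Symbols came from the platform annotation, and probes of one gene were averaged. limma 3.58.1 in R 4.3.3 (lmFit, eBayes) fitted the fiber difference and a dye term over all 19624 features, two-sided, with Benjamini-Hochberg adjustment at 0.05, and was tested on simulated data. Members, groups and lists were chosen with earlier results of these data known. Named in full were members past the threshold and members of one sign on all arrays. So were, in each group, the member with the lowest mean below 0 and the one with the highest above 0. Partners, regulators and related complexes were counted from whole lists. Alternatives were no dye term, no centring, scaling, single probes, named genes only, robust eBayes, one orientation, arrays averaged in pairs by title number and leaving out each array. Figures used matplotlib 3.10.9.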

Additional observations from a re-analysis of the deposited data

Results flagged for a closer look

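In 4 of the 47 genes one array stood apart from the other 5 by Dixon's gap test at the 95% level. For normal values without a dye effect about 1 in 20 would do so, or 2.35 of 47. The share over all features was not computed, so the 4 are not read as an excess. Psmb4, a constitutive beta subunit, was 0.307 on lens249 and between -0.104 and -0.016 on the others. Psmb9, an immunoproteasome subunit, was 0.389 on lens249 and between -0.092 and 0.043 elsewhere. Psmd4, a ubiquitin receptor of the base, was 1.287 on lens250, against -0.544 to 0.014. Psme3, the nuclear activator, was -1.025 on lens250, against -0.309 to 0.015.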

How the results depend on the processing

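The call of Psma4 held without the dye term, without centring, with arrays scaled to one spread, with each probe a feature, over named genes only and with robust eBayes. No proteasome gene passed when any one array was left out (0 to 0), in either orientation alone (0 and 0) or with arrays averaged in pairs (0), of which lens249 and lens250 is one, lens487 and lens488 another, and lens493 and lens455 what was left over; for Psma4 the limma adjusted p was then 0.25 at the same mean of -0.55. Over all features the calls numbered 16 to 117 on leaving out one array, 0 and 0 by orientation and 0 with averaged arrays, which leave fewer arrays. The averages of the groups moved by less than 1 SD without centring, with scaling and with each probe a feature. For leaving out one array or one orientation alone, that limit holds by construction, since the SD is over the same arrays. On leaving out one array some averages changed side or size. They ranged from -0.096 to 0.098 for the base subunits without ATPase, -0.057 to 0.028 for constitutive beta and -0.049 to 0.0085 for the other beta. Assembly factors of the core ranged from -0.10 to 0.041 and those of the base from -0.25 to -0.059. Usp14, Cct8 and Eif3e lost their calls with scaling, Eif3e also with each probe a feature and with robust eBayes, and these 3, Cct2 and Cct6a lost them on leaving out any array, by orientation and with averaged arrays. Cops2 gained a call without the dye term and with scaling. The numerator, if it is channel 2, exchanges all signs at once.

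Genes without a call changed side as follows. With scaling, Psmd4 was -0.0066. With mature fibers in channel 1 alone, Psma8 was 0.12, Psmb2 -0.25, Psmc1 -0.034, Psmd11 0.24, Psmd4 -0.032, Psmd7 0.066, Psmd9 0.032 and Psmg1 -0.12. With elongating fibers in channel 1 alone, Psma1 was 0.027, Psmb4 -0.079, Psmb9 -0.041, Psmc3 0.11, Psmc4 0.014, Psmd10 0.090, Psmd2 0.068, Psmg3 0.097 and Mafk 0.049. Leaving out one array gave Psma8 -0.070 to 0.018, Psmb4 -0.049 to 0.033, Psmb5 -0.21 to 0.074, Psmb9 -0.011 to 0.087, Psmc1 -0.085 to 0.34, Psmc3 -0.16 to 0.029, Psmc4 -0.12 to 0.049, Psmc5 -0.11 to 0.33, Psmd2 -0.13 to 0.0036, Psmd4 -0.27 to 0.19, Psmd7 -0.14 to 0.036, Psmd10 -0.42 to 0.15, Psme4 -0.015 to 0.062, Psmg1 -0.043 to 0.27, Psmg3 -0.090 to 0.035 and Ngly1 -0.29 to 0.0073. The cause of these changes was not tested.

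No paired analysis was possible because the labels give the arrays no shared replicate number; the averaging in pairs used title numbers, which the labels do not explain. An exact sign-flip test has 64 assignments and a smallest p of 0.0312, so it was not adjusted over all features.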
